A study of Mus musculus with 21 samples.

Results

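The genes of the cytosolic ribosomal proteins were followed through mouse preimplantation development. They were the protein-coding genes whose symbol is Rpl or Rps followed by a digit, together with Rplp0, Rplp1, Rplp2 and Rpsa, without the Rps6k kinases and the annotated pseudogenes. GENCODE vM21 on GRCm38 (mm10) holds 86 such genes on 19 chromosomes, 14 of them on chromosome 7, and 85 had a transcript in the merged long-read annotation, out of 14885 genes or loci with one. The gene without a transcript was Rpl3l, a paralog of Rpl3. The symbols cover 77 canonical subunit genes (46 of the large and 31 of the small subunit), 8 paralogs or retrocopies, and Rps19bp1, which binds a ribosomal protein but is not a part of the ribosome. The study sequenced amplified, oligo-dT-primed cDNA of mature sperm of ♂DBA/2J males (the protocol writes DBA/2N), of MII oocytes of superovulated C57/BL6J females, and of embryos of the ♂DBA/2J x ♀C57/BL6J cross. Embryos were at the 1-cell, 2-cell, 4-cell, 8-cell and blastocyst stages, many gametes or embryos were pooled in a sample, and embryos grew in KSOM medium after collection. Each of the 7 stages had 2 short-read libraries and 1 long-read pool made from 2 batches. The level of a gene is its summed TPM, the length-scaled share of transcripts that the authors deposited, which sums to a fixed total in every library and keeps no read depth. A level is therefore a share of the polyadenylated RNA that was captured. Fewer transcripts per cell, more of other transcripts, another mix of cells and shorter poly(A) tails cannot be told apart.

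A cytosolic ribosome carries 1 copy of most of these proteins, the large subunit made around the Rpl proteins and the small subunit around the Rps proteins. Growing oocytes stock ribosomes, and the embryo inherits this stock and begins to make its own ribosomes after the embryonic genome is activated. Most ribosomal protein mRNAs begin with a cytosine followed by an uninterrupted run of pyrimidines, the 5′ terminal oligopyrimidine (TOP) tract, through which LARP1 and the mTOR pathway set their translation together.

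A minority of the long-read 5′ ends began with this tract, a larger share than in other genes. The ends shared by the most pools are printed, and they do not stand for all genes of the family. RefSeq promoter windows of GRCm38.p6 were matched for 65 of the 85 genes, and 412 long-read transcripts of 62 genes had their 5′ end inside such a window. Of these 5′ ends, 22.1% were a C, against 6.39% of 19782 ends of other genes. A C followed by at least 4 further letters C or T stood exactly at the end in 17.2% of the ribosomal protein transcripts, from 30 genes, and in 1.05% of the others. The following windows hold 15 bases before the 5′ end and 15 from the end on, for the 8 genes whose most frequent end was shared by at least 4 of the 7 pools. Letters in capitals are the C or T run that begins with a C at the long-read 5′ end.
Rps27 (chr3:90213634-90213663, minus strand, 5 pools): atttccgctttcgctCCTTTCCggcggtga
Rpl4 (chr9:64173359-64173388, plus strand, 5 pools): aagtgacaagtctttCCTTTTCCTgtggga
Rps19 (chr7:24884618-24884647, plus strand, 4 pools): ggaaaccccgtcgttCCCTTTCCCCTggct
Rpl10a (chr17:28328568-28328597, plus strand, 4 pools): cgcaaagcgctctgcCTTCTTTCCggtttc
Rpl35 (chr2:39005111-39005140, minus strand, 4 pools): cgccctttcctctttCTCTCgaaccaggct
Rpl13a (chr7:45128721-45128750, minus strand, 5 pools): gacaagacctcctcctttcccaggcggctg
Rpl34 (chr3:130730307-130730336, minus strand, 4 pools): ccggggacggtgctcagaggtatggtggcc
Rps27l (chr9:66946077-66946106, plus strand, 5 pools): ctccccgccgcctctatcccggaagttgct
The first 5 of these 8 ends began with such a tract. The Rpl13a end lay inside a run of pyrimidines, and the ends of Rpl34 and Rps27l lay at an A. By the RefSeq starts alone, a C with 4 or more further pyrimidines was found on the transcribed strand within 15 bases of the start in 39 of 65 ribosomal protein promoters (60%) and in 37.4% of the 8086 promoters of all genes with a merged transcript. With 7 or more further pyrimidines the shares were 38.5% and 9.23%, and with the C exactly at the start they were 21.5% and 2.49%. The ends of sperm transcripts carried the tract in 37.3% of 51 cases, those of 1-cell transcripts in 5.88% of 34. A tract is a match of letters and not a measured TOP function.

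The summed share of the ribosomal protein genes in the transcriptome was lowest in the oocyte and 1-cell embryo and highest at the 8-cell stage. The 2 oocyte libraries gave 0.311% and 0.350% of all TPM, and the 1-cell libraries 0.401% and 0.167%. The 2-cell libraries gave 1.70% and 1.72%, and the 4-cell libraries 7.76% and 7.83%. The 8-cell libraries reached 13.7% and 12.4%. The blastocyst libraries gave 10.4% and 6.28%, which brackets the 4-cell values and lies below both 8-cell values. The stage means were thus 0.331% ± 0.0278 (SD, n = 2) in the oocyte, 0.284% ± 0.165 at the 1-cell, 1.71% ± 0.0154 at the 2-cell, 7.80% ± 0.0466 at the 4-cell and 13.1% ± 0.936 at the 8-cell stage, and 8.32% ± 2.88 in the blastocyst. From the 1-cell to the 2-cell stage the mean rose 6.03-fold, from the 2-cell to the 4-cell stage 4.55-fold, and from the 4-cell to the 8-cell stage 1.67-fold, so that the 8-cell mean was 39.5 times the oocyte mean. One paralog, Rps27l, described further on, held much of the sum in the oocyte and 1-cell libraries. Without it, an alternative chosen after seeing the data, the 8-cell mean was 83.5 times the oocyte mean, the mean rose 9.19-fold from the 1-cell to the 2-cell stage, and the 1-cell mean was 1.16 times the oocyte mean, where with it the 1-cell mean was the lower one. Sperm gave 1.43% and 1.31%, above both oocyte libraries and below both 2-cell libraries. These sums have no test of their own, and close sums do not mean that single genes agreed between the libraries.

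**Figure D1:**
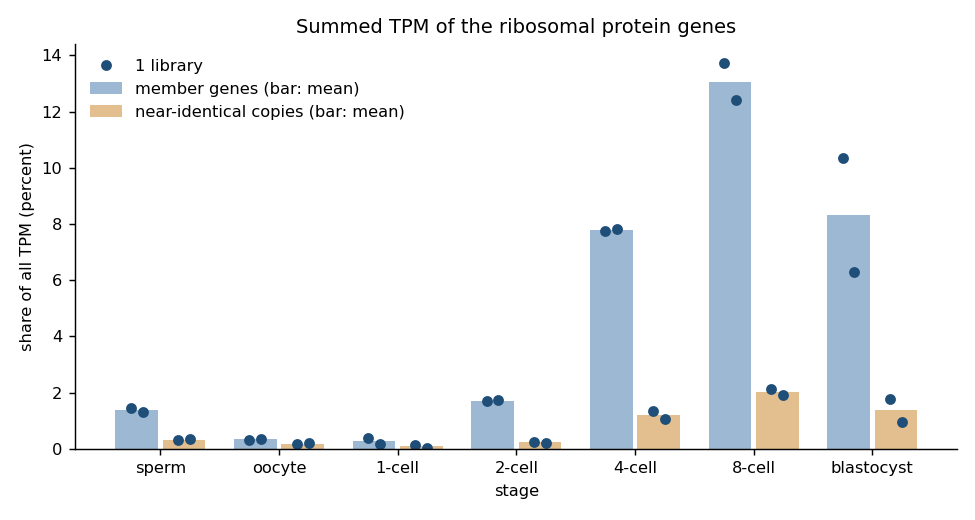
Summed TPM of the ribosomal protein genes (blue) and of annotated pseudogenes near-identical to them (tan) as a percent of all TPM in each stage. Bars are means of 2 libraries and points are the libraries, and the gene share runs from 0.284% at the 1-cell to 13.1% at the 8-cell stage.

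At the level of single genes the low share before the 2-cell stage was general. The median gene of the family stood at 4.30 and 3.82 TPM in the oocyte libraries, 18.2 and 5.70 TPM in the 1-cell, 92.9 and 119 TPM in the 2-cell, and 668 and 662 TPM in the 4-cell libraries. It reached 1177 and 1051 TPM at the 8-cell stage and was 831 and 344 TPM in the blastocyst. Only 5 and 2 of the 85 genes passed 100 TPM in the oocyte libraries, against 82 and 81 in the 8-cell libraries. The order of the genes was nearly the same at the 4-cell and 8-cell stages (Pearson's r 0.97 over the log2 stage means of 85 genes) and the 8-cell and blastocyst stages (0.93). Oocyte levels resembled 1-cell levels (0.88) and much less those of the 8-cell stage (0.42). These correlations are across genes, which share their libraries and are not replicates. By stage mean, 70 genes were highest at the 8-cell stage among the stages from oocyte on, 9 in the blastocyst (among them Rpl13, Rpl18, Rpl36, Rps2 and Rps18), 5 at the 4-cell stage and 1, the barely detected Rps27rt, in the oocyte.

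**Figure D2:**
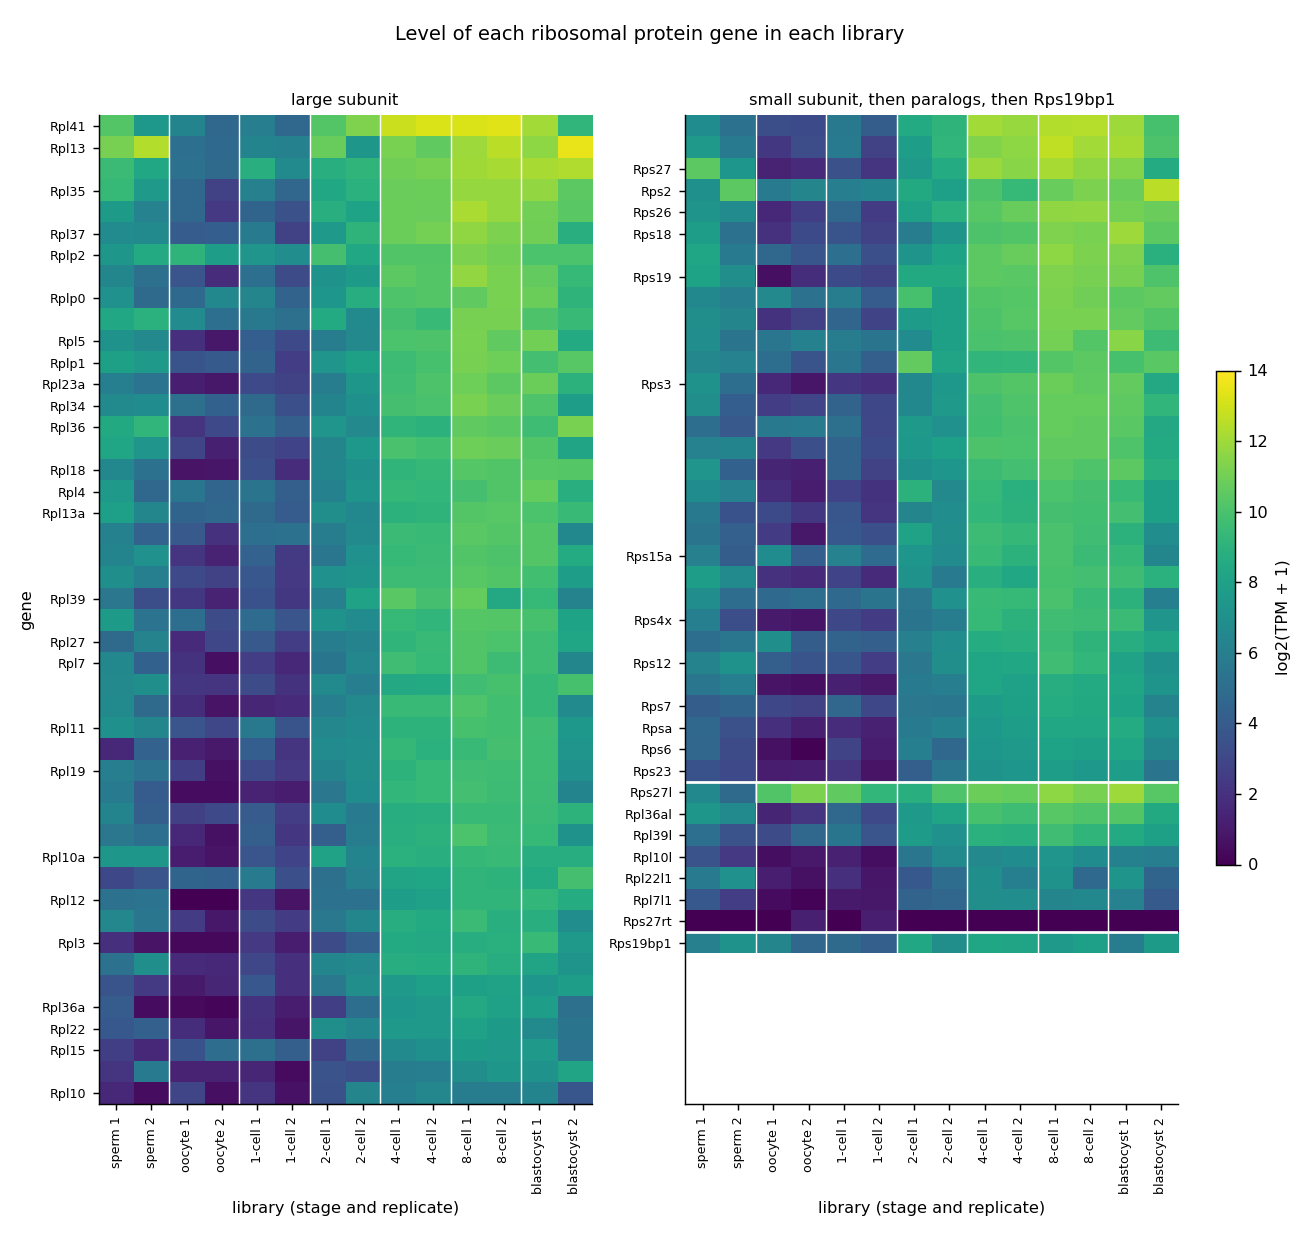
Level of each of the 85 ribosomal protein genes with a transcript, as log2(TPM + 1), in each of the 14 libraries. Genes are ordered by class and then by mean TPM from oocyte to blastocyst, those described in the text are labelled, the oocyte and 1-cell columns are dark for nearly all genes except Rps27l, and the 4-cell and 8-cell columns are bright except for Rps27rt.

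The replicate libraries differed most in the blastocyst, by the median over the genes. In blastocyst replicate 2 the genes stood below replicate 1 by a median of 1.67 on the log2 scale (the difference, replicate 2 minus replicate 1, was -1.67), with 70 genes lower and 14 higher, while all genes differed by a median of -0.36. Across the 85 genes this difference went with the GC content of the annotated mRNA (r = 0.46), as it did across all genes (r = 0.39). Such a relation was not particular to the blastocyst. For the 8-cell replicates r was 0.33 over the family and 0.48 over all genes, and for the 2-cell replicates -0.19 and -0.28. Whether base composition took part in the result was not tested. At the 1-cell stage 80 genes were lower in replicate 2 (median -1.17, against -0.48 over all genes), and in sperm 62 were lower (median -1.09, against -0.10). At the 2-cell stage 59 genes were higher and 25 lower in replicate 2 (median 0.56, against 0.88 over all genes). The SD over the genes was 1.15 there and r between the replicates 0.78, although the 2-cell sums were nearly equal. The 4-cell libraries differed by a median of 0.04, with an SD of 0.27 over the genes. The 10 most abundant genes took between 5.11% (4-cell replicate 1) and 30.1% (sperm replicate 1) of a library. Marker genes were checked against the stage labels. The 7 oocyte markers summed to 5152 and 16686 TPM in the oocyte libraries, the 7 blastocyst markers to 9481 and 35615 TPM in the blastocyst libraries, and the 6 sperm markers to 17183 and 21155 TPM in sperm. Most of the oocyte sums was Gdf9 (4176 and 15568 TPM). Most of the blastocyst sums was Krt8 (3504 and 15040 TPM) and Krt18 (5733 and 20177 TPM). Of the 7 blastocyst markers, 6 were called higher in the blastocyst than in the oocyte, and Tfap2c was not. The 5 markers of the 2-cell stage summed to 16.8 and 312 TPM in the 2-cell libraries and to 31.1 and 35.4 TPM at the 4-cell stage, so that 2-cell replicate 1 lay below both 4-cell libraries and did not stand out by them. The oocyte markers were still at 107 and 1259 TPM in the 2-cell libraries, against 132 and 137 TPM at the 4-cell stage. No cumulus marker (Has2, Ptx3, Tnfaip6, Amh, Inhba) had a merged transcript.

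From oocyte to 1-cell embryo, that is across fertilization, no gene of the family passed the test. Genes were tested by limma on log2(TPM + 1). The 12 libraries outside sperm entered with 1 common spread, and a call is an adjusted p (Benjamini-Hochberg over all 13465 genes tested) under 0.05. All 85 genes passed the filter of at least 1 TPM in at least 2 libraries, and differences on this scale understate the change of genes with low TPM. In this comparison 2.9% of all genes tested were called, 2.8% higher and 0.104% lower. An unadjusted p under 0.05 was reached by 14 of the 85 genes, and the median difference was 0.68 on the log2 scale, against 0.20 over all genes. With quantile-normalised values the medians were 0.12 and -0.12. In 32 genes both 1-cell libraries lay above both oocyte libraries, against 27.9% of all genes tested, and in 2 they lay below, against 7.52%.

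Between the 1-cell and 2-cell stages, when the major wave of embryonic transcription begins, most of the family rose together. Higher levels were called for 63 of 85 genes (32 of 46 large-subunit, 25 of 31 small-subunit and 5 of 7 paralog genes, and Rps19bp1), and lower levels for none, where 25.3% of all genes tested were called higher and 4.57% lower (29.9% in all). The median difference was 3.40 on the log2 scale, against 0.84 over all genes, and 2.66 against -0.11 with quantile-normalised values. In 80 genes both 2-cell libraries lay above both 1-cell libraries, against 46.1% of all genes tested. The count was 29 when 1-cell replicate 2 was left out and 35 when the spread was weighted by stage, and it lay between 48 and 67 under the other alternatives.

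Among the largest called rises were those of Rps19, Rpl41, Rpl22 and Rps27. Rps19, a small-subunit protein mutated in Diamond-Blackfan anaemia, was at 7.80 and 5.86 TPM in the 1-cell and at 359 and 364 TPM in the 2-cell libraries (log2 difference 5.55 ± 0.72 SE, limma adjusted p = 0.000369). Rpl41, the shortest protein of the large subunit, went from 61.5 and 24.1 to 1204 and 2504 TPM (5.45 ± 1.03, adjusted p = 0.00194). Rpl22, an RNA-binding large-subunit protein, went from 2.71 and 0.742 to 126 and 86.3 TPM (5.37 ± 0.72, adjusted p = 0.000416). In each of these genes the groups were far apart. Rps27, a zinc-finger protein of the small subunit, went from 10.3 and 3.37 to 186 and 392 TPM (5.27 ± 0.93, adjusted p = 0.00124). The 22 genes without a call included Rplp0, Rplp2 and Rpl13, and 3 of them, Rpl15, Rps27l and Rps27rt, had a negative difference. Blood and epididymis markers, with 5 of 7 in the merged annotation, summed to 0.975 and 3.05 TPM in the 1-cell and 20.5 and 372 TPM in the 2-cell libraries, mostly Hba-a1, and their part in the 2-cell levels was not tested.

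From the 2-cell to the 4-cell stage the family stood higher again, but few genes passed the test. Both 4-cell libraries lay above both 2-cell libraries in 78 of 85 genes and below them in none, where 27.2% of all genes tested lay above. The median difference was 2.37 on the log2 scale, against 0.00 over all genes. Calls were made for 5 genes, all higher, where 1.06% of all genes tested were called higher and 1.58% lower (2.64% in all). All 5 were among the 51 genes with a near-identical pseudogene, described further on, and the 34 other genes had 0 calls. The median difference was 2.51 in the genes with such a pseudogene and 2.22 in the others. An unadjusted p under 0.05 was reached by 69 genes. Rpl3, a large-subunit protein near the peptidyl transferase centre, went from 8.65 and 18.6 to 382 and 344 TPM (4.72 ± 0.77, limma adjusted p = 0.0148). Rpl5, which with Rpl11 binds 5S rRNA and Mdm2, went from 57.3 and 97.1 to 1058 and 1085 TPM (3.83 ± 0.87, adjusted p = 0.0392). The other called genes were Rps18 (57.4 and 153 to 1093 and 1158 TPM), the X-linked Rps4x (40.2 and 59.3 to 664 and 518 TPM) and Rpl27 (57.7 and 75.5 to 579 and 687 TPM). The 4-cell values of these genes were close to each other, and the gap to the 2-cell values was larger than the distance between replicates. Among these genes the 2-cell values of Rps18 differed most, at 57.4 and 153 TPM. The count of calls was unstable. It was 1 with the replicate number as a block or with a pseudocount of 0.1, 51 with quantile-normalised values, 9 with a stricter filter on low values and 0 in a fit on the 4 libraries alone or with the spread weighted by stage. Leaving out 1 library moved it between 0 (either 4-cell library left out) and 21 (2-cell replicate 2 left out), with 9 without 2-cell replicate 1, 17 and 16 without blastocyst replicates 1 and 2, and 1 without either 1-cell or either 8-cell library.

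From the 4-cell to the 8-cell stage the differences were smaller and mostly positive, and no gene passed the test, nor did any have an unadjusted p under 0.05 in limma. In this comparison 3.75% of all genes tested were called, 2.92% lower and 0.832% higher. The median difference of the family was 0.71, while that of all genes was -0.39, and with quantile-normalised values the medians were 0.55 and 0.03. In 74 of 85 genes both 8-cell libraries lay above both 4-cell libraries and in 3 below, where 19.8% of all genes tested lay above and 47.4% below. In the fit on these 4 libraries alone, which does not pool the spread of the other stages, 25 genes were called higher, and with the spread weighted by stage 13. The shares of all genes called in these fits are not given here, so these counts cannot be set against them.

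From the 8-cell stage to the blastocyst no gene of the family passed the test in limma, and 7 had an unadjusted p under 0.05. Of all genes tested, 1.99% were called, 0.921% higher and 1.07% lower. The median difference was -1.03, against -0.24 over all genes, and 6 genes had a positive one. In 48 genes both blastocyst libraries lay below both 8-cell libraries, where 31% of all genes tested did, and in no gene did both lie above. The drop was much larger in blastocyst replicate 2. Rpl41, with the most negative difference, stood at 9522 and 10374 TPM at the 8-cell stage and at 4243 and 596 TPM in the blastocyst (-2.64 ± 1.03, adjusted p = 0.26). Rpl13, a large-subunit protein, stood at 3938 and 5968 TPM and then at 3134 and 11988 TPM, so that its highest value was in the library in which most of the family was lowest.

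**Figure D3:**
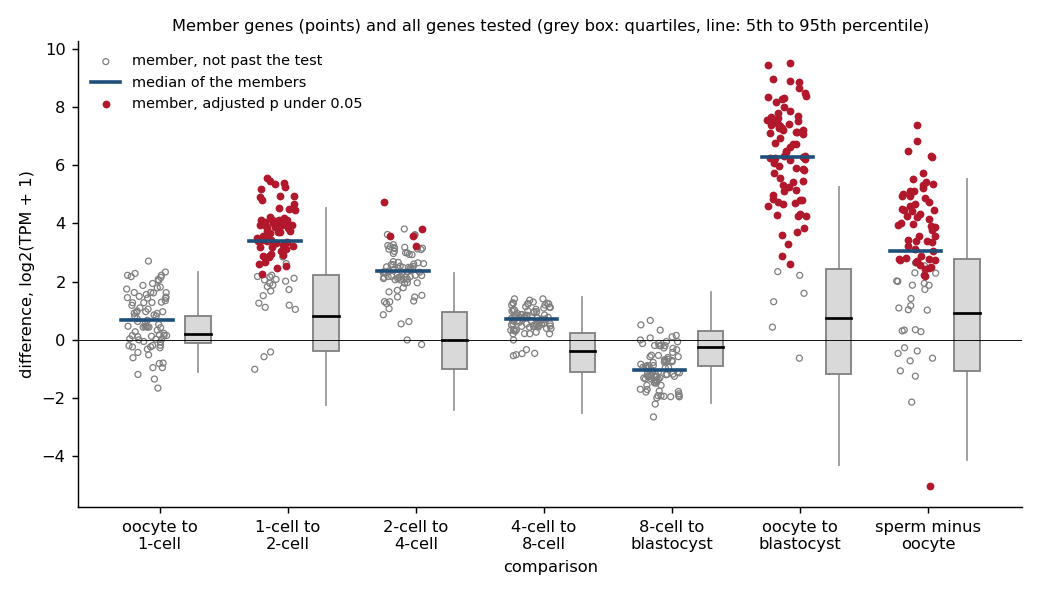
Difference in log2(TPM + 1) for each ribosomal protein gene (points, filled red where the adjusted p was under 0.05) and for all genes tested (grey box for the quartiles, line for the 5th to the 95th percentile), later minus earlier stage or sperm minus oocyte. The family's median is 3.40 for the 2-cell against the 1-cell stage and -1.03 for the blastocyst against the 8-cell stage, and Rps27l is the point at -5.02 in the last comparison.

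Over the whole course from oocyte to blastocyst, 79 of 85 genes were called higher and none lower, where 29.8% of all genes tested were called higher and 16.6% lower. The median difference was 6.30 on the log2 scale, against 0.75 over all genes, and 5.20 against 0.17 with quantile-normalised values. In 81 genes both blastocyst libraries lay above both oocyte libraries and in none below, against 46.3% and 26.3% of all genes tested. The count of calls lay between 75 and 81 when any library was left out. Rpl18, an RNA-binding large-subunit protein, had the largest rise, from 0.672 and 0.833 TPM in the oocyte to 1310 and 1267 TPM in the blastocyst (9.52 ± 0.72, limma adjusted p = 6.36e-06). Rps19 went from 0.510 and 2.55 to 2236 and 1145 TPM (9.43 ± 0.72, adjusted p = 6.36e-06). Rpl12, a protein of the ribosomal stalk base, was listed at 0 in both oocyte libraries and stood at 607 and 409 TPM in the blastocyst, and it also passed the test. Rpl23a, which contacts nascent chains at the exit tunnel, went from 1.24 and 0.862 to 1881 and 502 TPM (8.90 ± 0.81), and Rps26, a small-subunit protein at the mRNA exit channel, from 1.93 and 5.07 to 2127 and 1773 TPM (8.85 ± 0.84). The 6 genes without a call were Rpl15, Rplp2, Rps15a, Rps19bp1, Rps27l and Rps27rt.

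Among the most abundant genes over the 12 libraries from oocyte to blastocyst were Rpl41 and Rpl13, whose levels are given above. Among the least abundant were Rps27rt, Rpl10 and Rpl7l1. Rps27rt, a retrocopy of Rps27, was at 1.38 and 1.22 TPM in oocyte replicate 2 and 1-cell replicate 2 and listed at 0 in all other libraries. Rpl10, an X-linked protein that joins the large subunit late, reached 64.9 and 88.4 TPM at the 4-cell stage and was at 79.3 and 12.3 TPM in the blastocyst.

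The acidic stalk proteins and Rpsa did not share a single pattern. Rplp0, the stalk base, stood at 26.9 and 90.6 TPM in the oocyte and 1836 and 552 TPM in the blastocyst (4.32 ± 0.95, limma adjusted p = 0.0025). Rplp1, which binds Rplp0 as a dimer with Rplp2, went from 11.3 and 14.4 to 892 and 1305 TPM (6.30 ± 0.78, adjusted p = 5.5e-05). Rplp2 was already abundant in the oocyte, at 545 and 217 TPM, and stood at 1036 and 1057 TPM in the blastocyst (1.60 ± 0.82, adjusted p = 0.13). Its oocyte level was thus far above that of its dimer partner, while at the 8-cell stage both stood near each other (2459 and 2094 TPM for Rplp2, 2218 and 1922 TPM for Rplp1). Rpsa, also known as the laminin receptor, went from 2.88 and 1.35 TPM in the oocyte to 55.8 and 70.0 TPM at the 2-cell stage and 391 and 132 TPM in the blastocyst (6.24 ± 0.71, adjusted p = 3.4e-05). Rps23, a protein of the decoding centre, went from 1.14 and 1.27 TPM in the oocyte to 218 and 178 TPM at the 8-cell stage.

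Rps27l was abundant from the oocyte on. It encodes a close paralog of Rps27 and is known as a p53 target, and its levels were 1179 and 2375 TPM in the oocyte, 1515 and 615 TPM at the 1-cell, 461 and 1142 TPM at the 2-cell, 1828 and 1640 TPM at the 4-cell and 3187 and 2368 TPM at the 8-cell stage. In the blastocyst they were 3907 and 1320 TPM. The oocyte and blastocyst groups overlapped, with a log2 difference of 0.44 ± 0.93 (limma adjusted p = 0.72). Rps27 itself stood at 1.66 and 2.15 TPM in the oocyte, so that the mean log2 ratio of Rps27l to Rps27 was 9.18 there, 7.10 at the 1-cell, 1.42 at the 2-cell, -0.94 at the 4-cell and -0.49 at the 8-cell stage, and 1.15 in the blastocyst, where Rps27l was again above Rps27 in both libraries. Rps27l alone made up 37.9% and 67.8% of the family's TPM in the oocyte libraries, 37.8% and 36.8% in the 1-cell libraries and 1.91% to 6.62% in every library from the 2-cell stage on. Without it, the family summed to 1932 and 1130 TPM in the oocyte, 2495 and 1059 TPM at the 1-cell and 16559 and 16096 TPM at the 2-cell stage. Its long-read transcripts were found in all 7 pools.

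The other paralogs were low in the oocyte. Rpl36al, an autosomal copy of the X-linked Rpl36a, stood above it at every stage, with 1315 and 1117 TPM against 344 and 255 TPM at the 8-cell stage and a mean log2 ratio of 4.76 in sperm. Rpl10l, an autosomal copy of Rpl10 known for its role in male meiosis, went from 0.454 and 0.954 TPM in the oocyte to 154 and 111 TPM at the 8-cell stage. It lay above Rpl10 there (60.3 and 59.6 TPM) and below it in oocyte replicate 1 (6.49 TPM). Rpl39l, a copy of Rpl39 at the exit tunnel known from the testis, was at 8.47 and 26.0 TPM in the oocyte against 3.80 and 1.63 TPM for Rpl39, and at 499 and 452 TPM at the 4-cell stage against 1351 and 923 TPM. In the 8-cell libraries Rpl39 differed widely, at 1674 and 351 TPM. Rpl22l1 was at 54.5 and 137 TPM in sperm against 13.4 and 18.3 TPM for Rpl22, and at 13.2 and 31.5 TPM against 126 and 86.3 TPM at the 2-cell stage. Rpl7l1, a paralog of Rpl7 in ribosome assembly, stood below Rpl7 in all stage means. Rpl36al, Rpl10l, Rpl39l, Rpl22l1 and Rpl7l1 all rose from oocyte to blastocyst, with log2 differences of 4.27 to 7.56. Rps4l and Rps3a2, which vM21 lists as pseudogenes and which are not members, were both called higher in this comparison (7.09 ± 0.89 and 6.59 ± 0.76).

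**Figure D4:**
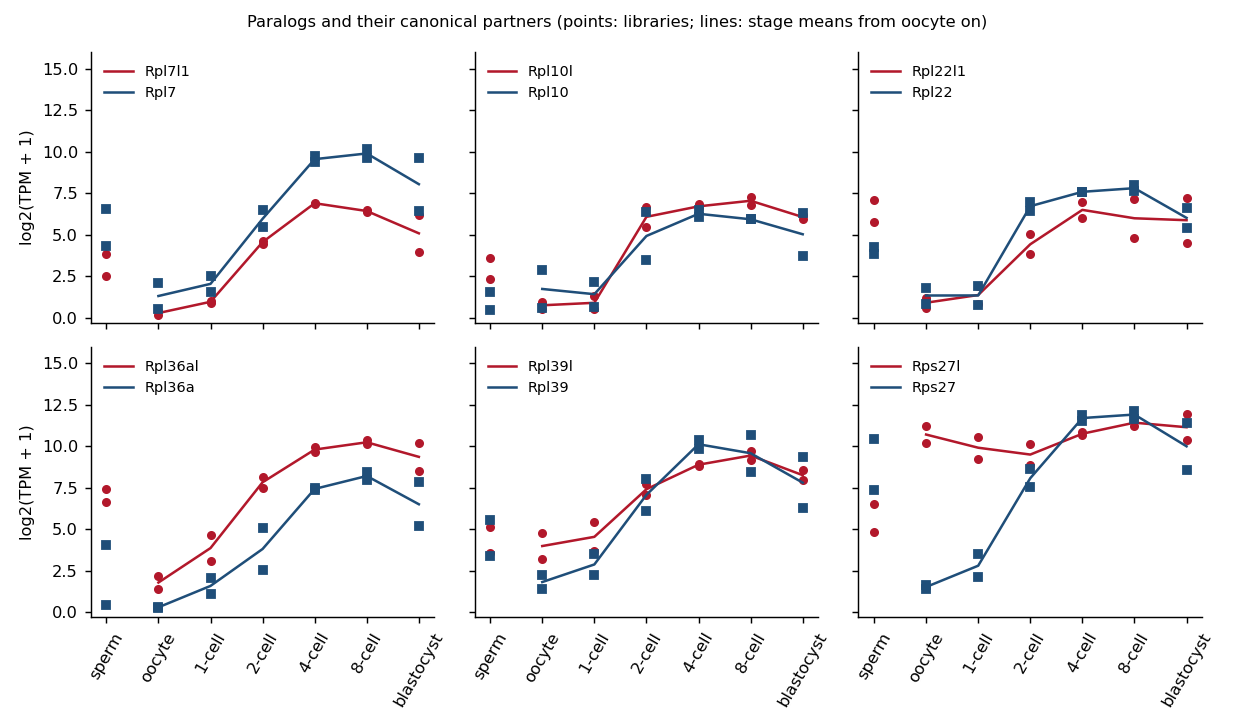
Level as log2(TPM + 1) of 6 paralogs (red) and their canonical partners (blue) in each stage, with points for the 2 libraries and lines for the stage means from oocyte on. Rps27l stays high from oocyte to blastocyst while Rps27 starts near 0, and Rpl36al lies above Rpl36a at every stage mean.

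Sperm held ribosomal protein mRNA at a higher share than oocytes. This comparison uses the same oocyte libraries as that with the blastocyst. In the fit on all 14 libraries, 57 of 85 genes were called higher in sperm than in the oocyte and 1, Rps27l, lower, where 35.5% of the 14397 genes tested were called higher and 15.5% lower. The median difference was 3.05, against 0.91 over all genes, and 2.21 against 0.04 with quantile-normalised values. In 69 genes both sperm libraries lay above both oocyte libraries and in 4 below, where 50.4% of all genes tested lay above and 24.2% below. Rps27 was at 1413 and 165 TPM in sperm (7.39 ± 1.10, limma adjusted p = 8.5e-05). Rpl13 was at 2262 and 5369 TPM in sperm and 33.5 and 26.8 TPM in the oocyte (6.81 ± 1.12), and Rpl10a, a large-subunit protein of the L1 stalk, at 169 and 168 against 1.16 and 0.683 TPM (6.47 ± 0.77). Rps19 was at 280 and 120 TPM (6.32 ± 0.80) and Rpl36 at 361 and 601 TPM (6.27 ± 0.83). Rps27l was at 92.5 and 27.6 TPM in sperm (-5.02 ± 1.02, adjusted p = 0.00094), far below both oocyte values. In the sperm libraries, 5 markers of epididymis and blood summed to 4025 and 5022 TPM, among them Hba-a1 at 1803 and 4384 TPM and Crisp1 at 2006 and 335 TPM. In the oocyte they summed to 1.46 and 0.0383 TPM. The part of other cells in the sperm values was not tested.

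Many ribosomal protein genes have processed pseudogenes with almost the same sequence, between which short reads are hard to assign. Of 436 annotated pseudogenes with a merged transcript, 86 matched the mRNA of 51 of the 85 genes at an identity of at least 95% over at least 80% of the shorter sequence. These copies held 35.5% and 35.3% of the TPM summed over genes and copies in the oocyte libraries, 24.1% and 18.7% at the 1-cell stage, and 11.4% to 14.8% in the libraries from the 2-cell stage on. Of 72 copies tested, 27 were called higher and 2 lower from 1-cell to 2-cell, where 25.3% and 4.57% of all genes tested were. From oocyte to blastocyst 39 were called higher and 3 lower, against 29.8% and 16.6% of all genes tested. In that comparison 50 of 51 genes with such a copy and 29 of 34 genes without one were called higher, with medians of 6.73 and 5.29.

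In some pairs most of the TPM lay on the copy. Rpl15-ps3 (chromosome 9), with 100% identity to Rpl15, stood at 2976 and 3104 TPM at the 8-cell stage, against 198 and 182 TPM for Rpl15, whose protein lies in the large-subunit core. Rps6-ps4 was at 1902 and 1660 TPM against 273 and 251 TPM for Rps6, the S6 kinase substrate of the small subunit, and Rps23-ps1 at 1665 and 1265 TPM against 218 and 178 TPM for Rps23. The division of TPM between each of these genes and its copy is uncertain. With the copies added, Rpl15 passed the test from oocyte to blastocyst (5.50 ± 0.94, limma adjusted p = 0.00048), where Rpl15 by itself did not (2.22 ± 0.90, adjusted p = 0.060).

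Rpl37rt, a transcribed copy, had its highest stage mean in the oocyte. Rpl37rt (chromosome 5), a retrogene with 99.7% identity to Rpl37, was at 489 and 771 TPM in the oocyte, 651 and 104 TPM at the 1-cell stage and 2.34 and 20.4 TPM at the 2-cell stage, with at most 11.6 TPM later. It was called lower from 1-cell to 2-cell (-4.95 ± 0.99, limma adjusted p = 0.0027) and from oocyte to blastocyst (-8.35 ± 0.99, adjusted p = 4.4e-05). Rpl37 was at 16.2 and 17.5 TPM in the oocyte and 3290 and 2400 TPM at the 8-cell stage. With its copy added, Rpl37 did not pass the test from oocyte to blastocyst (0.59 ± 1.05, adjusted p = 0.66).

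**Figure D5:**
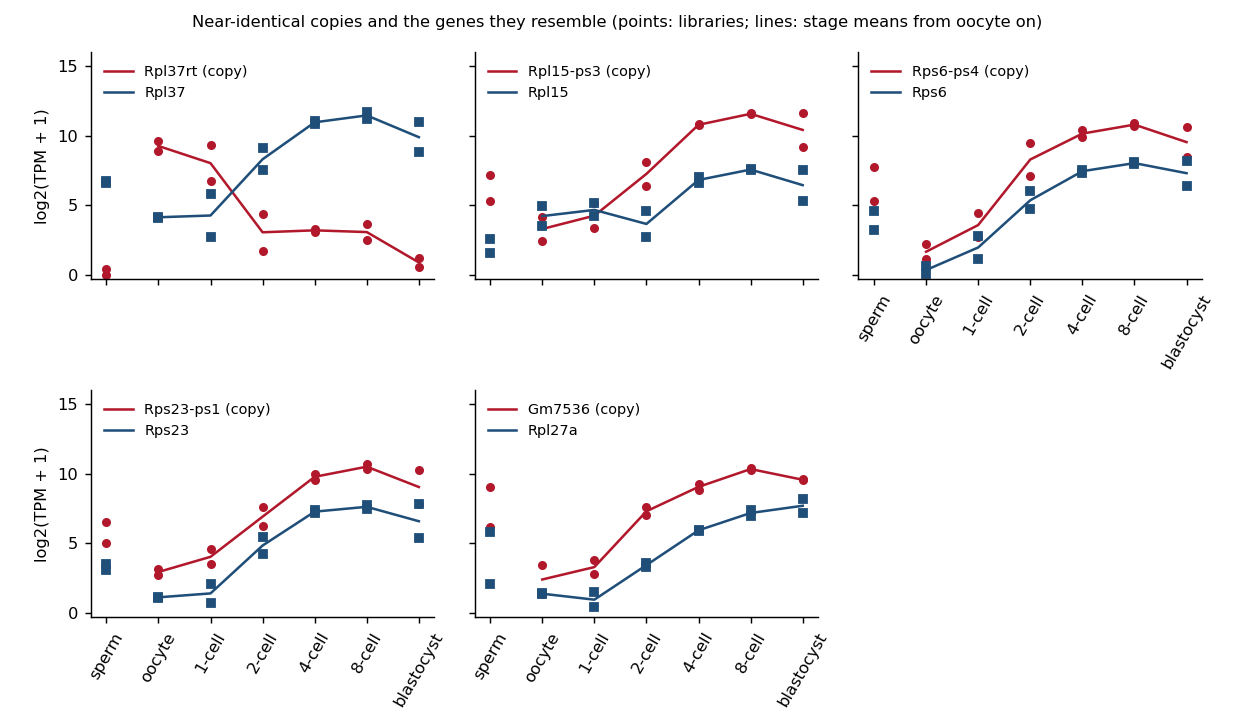
Level as log2(TPM + 1) of 5 near-identical copies (red) and of the ribosomal protein genes they resemble (blue), with points for the 2 libraries of a stage and lines for the stage means from oocyte on. Rpl37rt is highest in the oocyte by stage mean while Rpl37 rises, and the other 4 copies lie above their genes from the 2-cell stage on by stage mean. From the 8-cell stage to the blastocyst Gm7536 falls while its gene, Rpl27a, rises.

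In the long-read pools, too, fewer of the genes were found before the 2-cell stage. Transcripts of 28 of the 86 genes were found in the oocyte pool, of 46 in the 1-cell, 79 in the 2-cell, 82 in the 4-cell, 82 in the 8-cell and 81 in the blastocyst pool, and of 78 in the sperm pool. They were 0.469% of the 7034 transcripts of the oocyte pool, 0.718% of 7943 at the 1-cell stage and 2.13% of 8831 at the 8-cell stage. Each stage has a single pool, so these counts have no replicate check, and the 1-cell and blastocyst pools were sequenced in repeat runs. Ribosomal protein transcripts are short, with a median of 713 bases against 1247 bases over all merged transcripts. The oocyte and 1-cell pools held shorter transcripts than the others, with medians of 826 and 724 bases over all transcripts against 1108 to 1371 bases.

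The merged annotation held 191 transcripts of the family, with more than 1 for 58 genes and at most 6 for a gene. Of these, 115 followed an annotated intron chain or part of one, 75 were new isoforms that share an intron with the annotation, and 1 was neither. At least 10% of the mean TPM of the gene was carried by 23 new isoforms of 18 genes, 20 of which had an intron outside the annotation. In 16 of the 58 genes with more than 1 transcript, the transcript with the highest mean in the oocyte was not the one at the 8-cell stage, and between the 4-cell and 8-cell stages it differed in 3. The division of reads among isoforms of short genes is an estimate by salmon.

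Some transcripts began far upstream of the annotated start. In 9 of 84 genes (Rpl5, Rpl10, Rpl11, Rpl19, Rpl41, Rplp0, Rps3, Rps7 and Rps12) 12 of 190 transcripts began at least 500 bases upstream of the annotated gene and shared an intron with it. That of Rpl10 had annotated introns throughout, and the others held at least 1 new intron. Among the other protein-coding genes, 287 of 15677 transcripts, from 214 of 9312 genes, began as far upstream. In the oocyte libraries 0.762% and 0.410% of the family's TPM lay on such transcripts, against 8.48% and 15.6% at the 2-cell, 12.5% and 14.4% at the 4-cell and 8.79% and 10.6% at the 8-cell stage. The blastocyst share was 4.18% and 1.10%. Rps27l, which had no such transcript, was counted in these sums. It made up 37.9% and 67.8% of the family's TPM in the oocyte and 2.71% and 6.62% at the 2-cell stage, so it lowered the oocyte share most. In the other protein-coding genes the share was 3.15% and 1.20% in the oocyte and 1.77% and 1.78% at the 4-cell stage. These genes were chosen after their values were seen, and the shares have no test.

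Rpl41 carried most of this TPM from the 2-cell to the 8-cell stage. Its transcript of 655 bases (TCONS_00002474, chr10:128548117-128551927, minus strand) began 2622 bases upstream of the annotated gene and joined the annotated exons through a new intron. It was listed at 0 in both oocyte libraries and at 0.241 and 2.28 TPM in sperm, stood at 958 and 1595 TPM at the 2-cell, 6100 and 7363 TPM at the 4-cell and 7698 and 8534 TPM at the 8-cell stage, and at 1327 and 80.8 TPM in the blastocyst. The annotated transcript, TCONS_00002471, held 98.8% and 95.9% of the gene's TPM in the oocyte, 11.1% and 10.0% at the 8-cell stage, and 63.6% and 80.1% in the blastocyst. Long reads with an upstream start of Rpl41 were found in the 2-cell, 4-cell, 8-cell and blastocyst pools, and in no other.

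In Rplp0, a transcript that began 2152 bases upstream (TCONS_00015596, chr5:115557315-115563635, plus strand) held 0% of the gene's TPM in both oocyte libraries, 74.7% and 80.5% at the 2-cell, 77.3% and 70.6% at the 4-cell and 45.9% and 53.8% at the 8-cell stage, and 11.5% and 1.17% in the blastocyst. The upstream transcript of Rpl19 held 59.0% and 35.7% of that gene at the 2-cell stage and 2.11% and 4.37% in the blastocyst, but also 40.2% and 87.5% in sperm. For Rps12, at the small-subunit beak, the share was 0% in the oocyte, 35.3% and 37.4% at the 4-cell stage and 7.41% and 6.39% in the blastocyst. Rpl11 and Rps3 had no such low share in the oocyte. For Rpl11 it was 100% and 96.1% in the oocyte (11.8 and 6.50 TPM) and 79.8% and 84.8% at the 4-cell stage. For Rps3, a small-subunit protein at the mRNA entry, it was 100% in both oocyte libraries (1.95 and 0.821 TPM). At the 4-cell stage it was 84.1% and 73.8% for Rps3. Long-read upstream starts came from the 2-cell pool alone for Rpl11, and for Rps3 from the pools between 2-cell and 8-cell. None came from the oocyte pool. Neither merged transcript of Rpl11 followed an annotated intron chain. The oocyte shares of both genes thus cannot tell where their transcripts began. For Rpl10 the share was 14.6% and 91.1% in the oocyte libraries, at a level of at most 0.947 TPM, and for Rpl5 29.3% and 0%. Rps7 had an upstream transcript as its only merged transcript, so its whole TPM lay on it in every library and says nothing of a start.

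Genes outside the symbol rule were counted by the lists. Fau and Rack1, which encode further ribosomal proteins under other symbols, were both called higher from oocyte to blastocyst, and Fau also from 1-cell to 2-cell. Fau, whose protein is a ubiquitin-like domain fused to a small-subunit protein, went from 100.1 and 16.3 to 321 and 435 TPM in the latter step (3.16 ± 0.88, limma adjusted p = 0.017). Of 10 other TOP mRNAs, mostly of translation factors, 2 were called higher from 1-cell to 2-cell, Pabpc1 and Eef1g, where 25.3% of all genes tested were, and 6 from oocyte to blastocyst, against 29.8%. The 10 include genes abundant in the oocyte: Tpt1 at 449 and 1085 TPM and Hnrnpa1 at 254 and 262 TPM. Hnrnpa1 and Npm1 were called lower in sperm than in the oocyte (-4.49 ± 1.00 and -3.01 ± 1.00), and 5 of the 10 were called higher, where 35.5% of all genes tested were called higher and 15.5% lower.

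Of 10 regulators of TOP mRNAs, 8 had a merged transcript and 5 of these were called higher from 1-cell to 2-cell: Larp1, Mtor, Rptor, Eif4ebp1 and Tsc1. Of all genes tested 25.3% were called higher in this step. Larp1, which binds the TOP tract, went from 2.09 and 5.33 to 96.4 and 70.1 TPM (4.23 ± 0.72, limma adjusted p = 0.001). Eif4ebp1, which binds the cap-binding protein when mTOR is inactive, went from 5.13 and 4.58 to 191 and 153 TPM. Of 5 chaperones that escort single ribosomal proteins, Tsr2 (for Rps26), Grwd1 (for Rpl3) and Heatr3 (for Rpl5) were called higher in this step. Tsr2 was at 0.293 and 0.196 TPM in the 1-cell, 22.7 and 12.1 TPM in the 2-cell and 256 and 229 TPM in the 4-cell libraries, and it was also called from 2-cell to 4-cell (3.79 ± 0.64, adjusted p = 0.016).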

How the data were processed

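Long reads were mapped to mm10 by the authors, collapsed within each stage and merged across stages, and the exon coordinates were deposited. The authors deposited TPM that salmon gave each merged transcript in each of 14 short-read libraries of Smart-seq2 cDNA. The submitters' processing notes also name Cufflinks, GSNAP and STAR. TPM is scaled by length and library and keeps no depth, so no count test was run and the precision comes only from 2 libraries per stage. The study collected 2 batches per stage and does not tie a library to animals, so p-values measure the spread between these samples. TPM over the long-read transcripts of a single stage was not used. The methods name GENCODE vM20 and the reporting summary vM22. Samples were grouped by title. The 8-cell titles number the replicates opposite to the names of the deposited files, and the title was followed.

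Merged and stage transcripts were assigned to GENCODE vM21 genes (GRCm38) by the largest same-strand exon overlap, and gene TPM was the sum over transcripts. Differences were tested with limma (lmFit, contrasts.fit, eBayes with trend) on log2(TPM + 1), stage as the only term, over 12 libraries (14 for sperm), for genes that reached 1 TPM in 2 libraries or more, adjusted by Benjamini-Hochberg over all genes of a comparison. Sums, promoter and isoform shares and long-read counts have no test. Named are, per comparison, up to 5 called genes each with the most positive and most negative differences, the paralogs with their partners, the stalk proteins, Rpsa, Rps23 and the 3 highest and lowest genes. The copies with their genes and the upstream transcripts were named after their values were seen. Some genes that meet this rule are not reported here. The gene family and all lists were chosen with earlier results of these data known. Copies were found with BLAST 2.17.0 on vM21 transcript sequences, a choice made after seeing the data in place of a planned genome search, since no genome was used here. Alternatives were a pseudocount of 0.1, no filter or a minimum of 5 TPM, quantile normalization, the 4 libraries of a comparison, a replicate block, a spread weighted by stage, a shared intron, and each library left out. The shares of all genes called under the alternatives, or at an unadjusted p, are not given here. Counts of the family under the alternatives thus show only how far the calls moved. The fit was tested on simulated data. Python 3.11.15, pandas 2.3.3, R 4.3.3 and limma 3.58.1 were used.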

Additional observations from a re-analysis of the deposited data

How the results depend on the processing

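Among counts of called genes, those of the 1-cell to 2-cell, 2-cell to 4-cell, 4-cell to 8-cell and oocyte to 1-cell steps, and the count lower in sperm, moved by over 1.5 times under some alternative. With a pseudocount of 0.1, 1 gene (Rpl12) was called higher in the 1-cell embryo than in the oocyte, 1 higher at the 4-cell than at the 2-cell stage, and 2 lower in sperm. The 63 calls at the 2-cell stage became 35 with the spread weighted by stage and 29 to 67 when a library was left out. The 5 calls at the 4-cell stage became 9 with a minimum of 5 TPM, 51 with quantile normalization, 0 on the 4 libraries alone, 0 with the weighted spread and 0 to 21 when a library was left out. At the 8-cell stage the count of 0 became 25 on the 4 libraries alone and 13 with the weighted spread. Lower in sperm were 3 genes with quantile normalization, 2 with the copies added and 1 to 2 when a library was left out. When a library was left out, 75 to 81 genes were called higher in the blastocyst than in the oocyte, and 42 to 61 higher in sperm. With the copies added the mean share of the family was 1.69% in sperm, 0.512% in the oocyte, 1.95% at the 2-cell, 9.001% at the 4-cell and 15.1% at the 8-cell stage. The promoter tract share was 38.5% with 7 pyrimidines and 21.5% with the C at the start. The cause of these moves was not tested. The correlation of the replicate differences ran from -0.49 to 0.44 over 15 pairs of stages, with 4 above 0.1, and was highest for the 8-cell stage with the blastocyst. Whether libraries with the same number came from a shared batch cannot be told from these values. The 8-cell numbers also differ between titles and file names. With the replicate block, 63 genes were called higher at the 2-cell stage, 1 at the 4-cell stage, 80 in the blastocyst against the oocyte and 59 in sperm. Of 66 changes of named genes, 40 kept their direction and their side of the threshold in each of 17 to 23 alternatives, and none of the changes past the threshold reversed. The 6 that reversed did so when a library was left out. In sperm against oocyte, Rplp0 ran from -0.82 to 1.44 (-0.55 without oocyte replicate 1), Rplp2 from -1.12 to 0.20 (0.12 without sperm replicate 1), Rpl39l from -0.44 to 1.12 (-0.42 without oocyte replicate 1, and -0.31 with quantile normalization) and Rpl10 from -1.89 to 0.45. Rps27l ran from -1.06 to 0.24 at the 2-cell stage and from -0.34 to 1.22 in the blastocyst against the oocyte (-0.06 without oocyte replicate 1). TPM gives no depth, and 2 libraries per stage limit every test.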
